A study of Mus musculus with 39 samples.

Results

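Cumulus cell-derived SCNT embryos that had received trichostatin A (TSA) were compared with SCNT embryos from the same donor cell type that had not, by microarray at the 2-cell stage. The arrays labelled as cumulus clones with TSA (6 arrays, TSA(+)) and without TSA (8 arrays, TSA(–)) were taken, 14 of the 39 arrays of the series. In both groups the nucleus of a cumulus cell of the (B6xDBA/2)F1 strain had been transferred into an enucleated oocyte and each sample was RNA from 10 pooled embryos cultured for 24 h. TSA(+) embryos had 5 nM TSA in the medium for the first 8 h from activation, and TSA(–) embryos had none. Embryos from in vitro fertilization of the same strain (IVF, 6 arrays, no TSA, also 10 pooled embryos at 24 h) served as the reference, and oocytes (OC, 7 arrays) and donor cumulus cells (Cumulus, 4 arrays) give background levels. The labels do not say whether replicates came from separate days of nuclear transfer, so p-values measure a spread between samples that may be technical. That spread was estimated over all 31 arrays of these groups, so OC and Cumulus samples enter it as well as the clones. Because 10 embryos were pooled, a change in a few embryos and a smaller change in all of them cannot be told apart.

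Histone deacetylases remove acetyl groups from histone tails and are often part of corepressor complexes, and acetylated chromatin is in general more open to transcription. TSA blocks the zinc-dependent deacetylases, and the NAD-dependent sirtuins are not its targets. In cloning it is given for the first hours after activation because the donor nucleus arrives with the chromatin of a differentiated cell, while in the mouse the embryonic genome becomes active mainly in the 2-cell stage, when maternal transcripts are cleared and a burst of 2-cell genes such as the *Zscan4* cluster is transcribed. The comparison asks which transcripts differ after the treatment and whether they lie nearer to the level of fertilized embryos.

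Levels of probes are log2 processed intensities from which the 75th percentile of the same array has been subtracted. A level of 0 is that percentile, and a difference is measured relative to it. Of 37927 probes tested, 163 were higher and 356 lower in TSA(+) than in TSA(–) (limma, Benjamini-Hochberg adjusted p under 0.05), and this is the test behind every adjusted p given here. The background was thus 0.43% of probes called higher and 0.939% called lower, or 1.37% in either direction. The probes called higher represented 111 named genes and those called lower 149, with 51 and 203 probes that have no gene symbol in the annotation used. Among genes whose groups did not overlap and that clearly exceeded the background on all arrays of the group with the higher level, those higher in TSA(+) were led by the adhesion molecule *Pcdh8*, the motor protein *Myo3b* and the collagens *Col1a1* and *Col5a3*, and those lower by the retinoic acid-synthesizing enzyme *Aldh1a3*, *Jakmip1* and *Myo1e*. Some larger differences did not meet these criteria: *Bhlhe23*, a basic helix-loop-helix transcription factor given here after its values were seen, had a mean of −7.53 in TSA(–), −1.70 in TSA(+) and 1.36 in IVF, a difference of 5.83 ± 0.80 (SE; adjusted p = 5.2e-04), with overlapping clone groups and 2 of 8 TSA(–) arrays well above background. The median size of the difference was 1.03 on the log2 scale for the probes called higher and −1.77 for those called lower, over ranges of 0.53 to 5.83 and 0.51 to 6.25 in size. At an adjusted p under 0.01, 57 probes remained (0.15% of those tested), 20 higher and 37 lower.

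The split between higher and lower depended on the scaling. The median difference of all probes was −0.09; centring the arrays on their medians turned it to 0.09 and gave 528 calls higher and 240 lower. With quantile normalization they were 376 and 450, and with normexp 806 and 872. The median difference was larger in size among dim probes, at −0.28 for the 14229 probes that were not well above background on all 14 arrays against −0.02 for the 23698 that were. Among the probes called lower, 176 of 356 were not well above background on at least 1 TSA(+) array and 54 on none of them, whereas 31 of the 163 called higher were not well above background on at least 1 TSA(–) array and 4 on none.

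**Figure D1:**
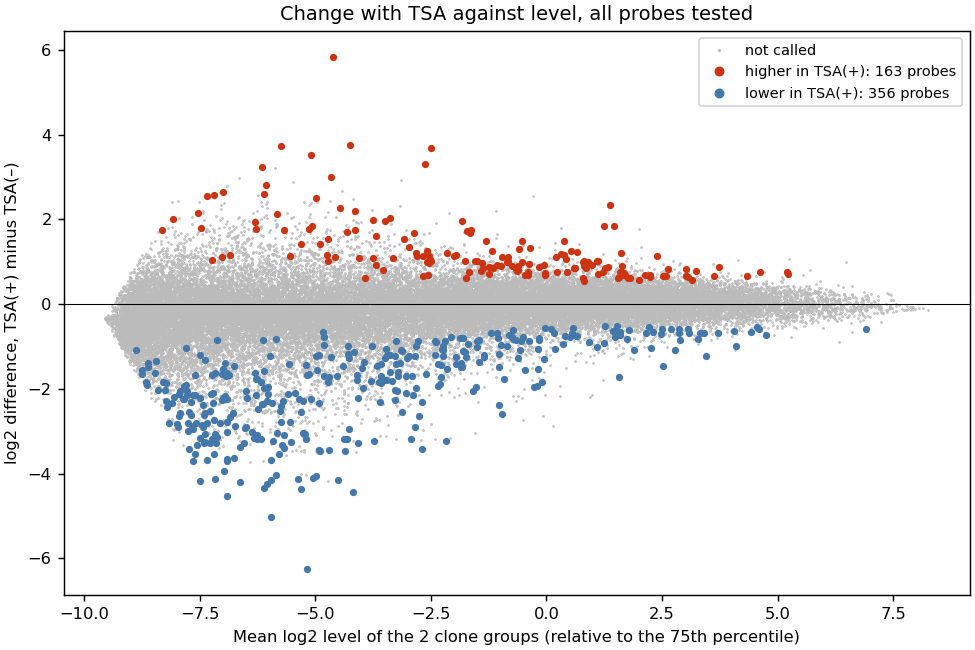
Each point is 1 of the 37927 probes tested, with the mean log2 level of the TSA(–) and TSA(+) groups relative to the 75th percentile on the horizontal axis and the log2 difference, TSA(+) minus TSA(–), on the vertical axis. The 163 probes called higher (red) and the 356 called lower (blue) are shown over the probes not called (grey), and the differences of dim probes, on the left, spread more widely than those of bright ones.

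TSA(–) and TSA(+) arrays lay on 9 slides scanned on 5 days, and the groups shared 1 slide, with 1 array of each, and 3 days. When the slide entered the model as a block, 1 probe was called higher and 2 lower. Since 1 slide held both clone groups, the rest of that comparison ran through IVF and OC arrays on the same slides as the clones. The fits with the slide or scan day as a block left out the Cumulus arrays, so the set of samples changed as well. With the scan day as a block 139 were called higher and 328 lower. The slide fit shared 2 of the 519 calls and the day fit 291. All 519 called probes kept the direction of their difference under both, which were fitted to the same clone arrays. On the shared slide 154 of the 163 probes called higher and 333 of the 356 called lower differed in the same direction, and on the 3 shared days 163, 155 and 161 of the former and 355, 329 and 346 of the latter did so; these arrays also contributed to the calls. The calls also moved with single arrays, to 58 higher and 111 lower without TSA(+) replicate 5 and to 190 and 499 without TSA(–) replicate 7.

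Promoter sequences are shown for *Pcdh8* and *Myo3b*, which lead the increases among the genes named below, and for *Jakmip1* and *Myo1e*, which come after *Aldh1a3* among the decreases, because deacetylase inhibition acts on chromatin and promoters are where the sequence context of a gene that rose can be set beside that of one that fell. They are from RefSeq (GRCm38.p6), from 250 bases before to 50 after the first base of the gene, written 5′ to 3′ on the strand of the gene. Capitals mark 3 motifs searched on both strands: GGGCGG of the GC box, TATAAA of the TATA box, and CCAAT, which reads ATTGG on the strand opposite. No marked motifs overlap in these promoters.
*Pcdh8* (chr14:79771263-79771562, minus strand): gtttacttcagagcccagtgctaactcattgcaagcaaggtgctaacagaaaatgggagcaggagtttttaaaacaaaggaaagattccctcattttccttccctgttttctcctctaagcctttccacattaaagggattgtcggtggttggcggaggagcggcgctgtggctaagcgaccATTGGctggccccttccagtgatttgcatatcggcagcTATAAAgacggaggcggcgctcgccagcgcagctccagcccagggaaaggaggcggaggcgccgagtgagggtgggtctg
*Myo3b* (chr2:70038876-70039175, plus strand): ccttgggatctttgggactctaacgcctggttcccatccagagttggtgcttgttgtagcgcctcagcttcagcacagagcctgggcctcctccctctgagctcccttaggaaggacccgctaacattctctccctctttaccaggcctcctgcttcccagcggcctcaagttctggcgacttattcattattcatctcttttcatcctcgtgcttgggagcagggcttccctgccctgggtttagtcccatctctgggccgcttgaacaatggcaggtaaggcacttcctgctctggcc
*Jakmip1* (chr5:37050607-37050906, plus strand): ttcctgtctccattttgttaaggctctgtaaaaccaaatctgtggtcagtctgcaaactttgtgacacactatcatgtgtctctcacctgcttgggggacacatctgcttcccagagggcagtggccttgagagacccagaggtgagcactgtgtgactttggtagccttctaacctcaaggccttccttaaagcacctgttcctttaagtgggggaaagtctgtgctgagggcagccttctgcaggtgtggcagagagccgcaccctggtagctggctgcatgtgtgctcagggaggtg
*Myo1e* (chr9:70207100-70207399, plus strand): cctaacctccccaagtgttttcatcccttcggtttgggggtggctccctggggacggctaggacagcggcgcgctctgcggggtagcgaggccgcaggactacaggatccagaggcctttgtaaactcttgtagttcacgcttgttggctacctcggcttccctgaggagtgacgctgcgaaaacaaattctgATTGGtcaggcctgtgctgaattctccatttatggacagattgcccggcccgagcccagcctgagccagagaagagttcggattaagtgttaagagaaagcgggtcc

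*Pcdh8* has 14 CG dinucleotides in this window, with 1 TATAAA and 1 CCAAT, and *Myo1e* has 16 with 1 CCAAT. *Myo3b* has 7 and *Jakmip1* 1, and neither holds any of the 3 motifs in these letters. A promoter of this kind was matched for 86 of the 111 genes called higher, 117 of the 149 called lower and 12750 of the 15991 named genes tested. The GC box core was present in 62.8% of the promoters of genes called higher, 55.6% of those called lower and 53.6% of all. The TATA core was present in 5.81%, 12.8% and 11.5%, the CCAAT core in 39.5%, 37.6% and 38.7%, and the median number of CG dinucleotides was 19.5, 15 and 17. These shares describe the sequences and carry no test.

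The genes named below are the 15 with the largest increase and the 15 with the largest decrease among called probes whose TSA(–) and TSA(+) values did not overlap and which exceeded the background clearly on all arrays of the group with the higher level, 1 probe for each symbol. Probes of this kind numbered 53 higher and 45 lower. Of all probes tested, 586 (1.55%) did not overlap between the groups, and of those called, 72 of 163 and 87 of 356 did not. Since these criteria chose the genes, their separation is a description.

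**Figure D2:**
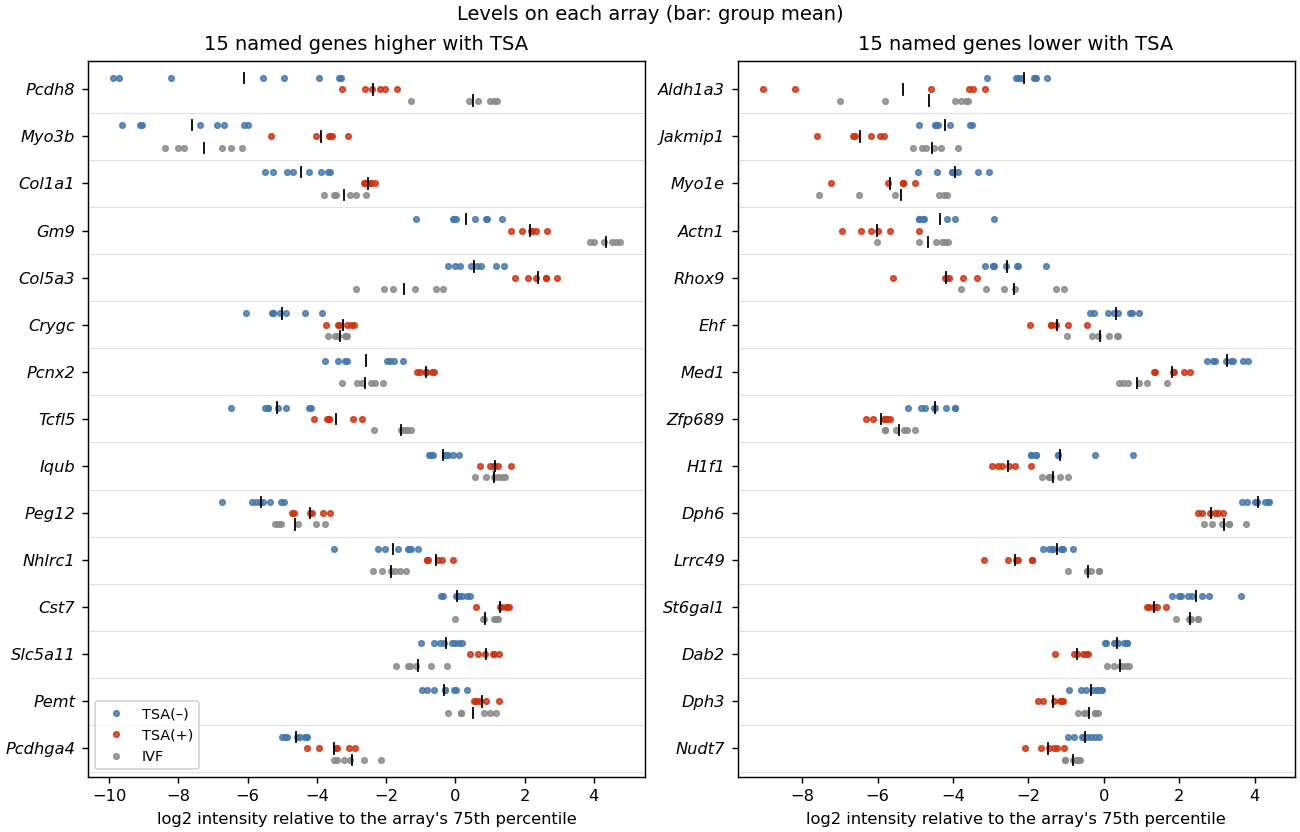
Each dot is 1 array, at its log2 level against the array's 75th percentile on the horizontal axis, for the 15 genes with the largest increase (left) and the largest decrease (right), in TSA(–) (blue, 8 arrays), TSA(+) (red, 6 arrays) and IVF (grey, 6 arrays). Black bars are group means; the blue and red dots do not overlap for any of these genes, by the rule that chose them, and *Actn1* has 7 TSA(–) values.

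*Pcdh8*, a protocadherin of the cell surface that takes part in adhesion and sorting of cells, showed the largest increase of these 15 genes. Its level had a minimum of −9.88, a median of −5.24 and a maximum of −3.31 in TSA(–), and −3.27, −2.30 and −1.69 in TSA(+). The TSA(–) arrays were spread widely, with 5 of 8 well above background, and the lowest TSA(+) array lay just above the highest TSA(–) array. The difference was 3.74 ± 0.88 (SE) on the log2 scale (limma, adjusted p = 0.030), and with normexp it was 1.75 (adjusted p = 0.0026). IVF embryos had −1.27, 0.83 and 1.21, above both clone groups, and the means differed from IVF by −6.63 in TSA(–) and −2.89 in TSA(+).

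*Myo3b* encodes a class III myosin with a kinase domain, known from the actin-filled protrusions of sensory hair cells. The level had a minimum of −9.62, a median of −7.13 and a maximum of −5.98 in TSA(–), where 4 of 8 arrays were well above background, and −5.32, −3.64 and −3.09 in TSA(+). In IVF, where 3 of 6 arrays were well above background, it was −8.38, −7.29 and −6.15, so the TSA(+) arrays were apart from both other groups. The difference between the clone groups was 3.72 ± 0.51 (adjusted p = 5.2e-04), or 1.31 with normexp, and TSA(+) was 3.39 above IVF.

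Among the collagens, *Col1a1*, the α1 chain of type I collagen, had a minimum of −5.50, a median of −4.47 and a maximum of −3.64 in TSA(–), and −2.64, −2.54 and −2.31 in TSA(+). The TSA(+) arrays lay within a narrow range above the TSA(–) arrays and overlapped the IVF arrays (−3.79 to −2.57), with a difference of 1.96 ± 0.37 (adjusted p = 0.0096). *Col5a3*, a chain of type V collagen, had −0.20, 0.55 and 1.40 in TSA(–) and 1.71, 2.46 and 2.93 in TSA(+), a difference of 1.84 ± 0.48 (adjusted p = 0.047; 0.058 with quantile normalization, and passing in 3 of the 14 fits that left out 1 array). Here all IVF arrays (−2.86 to −0.36) lay below both clone groups. Other probes for these genes, 2 for *Col1a1* and 1 for *Col5a3*, did not pass the test, with differences of −0.28, 0.37 and 0.00.

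*Iqub*, whose protein has IQ and ubiquitin-like domains and is known from cilia, had a minimum of −0.77, a median of −0.29 and a maximum of 0.10 in TSA(–), and 0.72, 1.11 and 1.60 in TSA(+). The IVF arrays (0.58 to 1.43) covered much of the same range as TSA(+), and the difference between the clone groups was 1.49 ± 0.36 (adjusted p = 0.035). *Cst7*, cystatin F, an inhibitor of cysteine proteases, had −0.41, 0.09 and 0.43 in TSA(–) and 0.60, 1.39 and 1.54 in TSA(+), with IVF at −0.02 to 1.23. The IVF arrays overlapped both clone groups, and the difference was 1.23 ± 0.22 (adjusted p = 0.0055). *Pemt*, a methyltransferase that makes phosphatidylcholine, had −0.95, −0.30 and 0.33 in TSA(–), 0.54, 0.66 and 1.25 in TSA(+) and −0.20 to 1.17 in IVF. Its difference was 1.10 ± 0.26 (adjusted p = 0.033), and another probe for it gave 0.63 and did not pass.

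The germ cell transcription factor *Tcfl5* and the X-linked *Gm9* were higher in TSA(+) than in TSA(–) and remained below IVF. *Tcfl5* had a minimum of −6.47, a median of −5.27 and a maximum of −4.17 in TSA(–), −4.09, −3.65 and −2.70 in TSA(+), and −2.36 to −1.27 in IVF. The 3 groups did not overlap, and TSA(+) exceeded TSA(–) by 1.69 ± 0.31 (adjusted p = 0.0070). *Gm9* had −1.13, 0.29 and 1.36 in TSA(–), 1.61, 2.20 and 2.66 in TSA(+), and 3.90 to 4.74 in IVF, again with no overlap and with a difference of 1.84 ± 0.28.

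*Slc5a11*, a sodium-coupled transporter of myo-inositol, and *Nhlrc1*, a ubiquitin ligase of glycogen metabolism, were above IVF in TSA(+). *Slc5a11* had a minimum of −1.0, a median of −0.21 and a maximum of 0.18 in TSA(–), 0.41, 0.97 and 1.26 in TSA(+) and −1.72 to −0.26 in IVF. TSA(+) exceeded TSA(–) by 1.18 ± 0.25 (adjusted p = 0.019) and IVF by 1.98, while TSA(–) already exceeded IVF by 0.80 (adjusted p = 0.015). *Nhlrc1* had −3.50, −1.51 and −1.07 in TSA(–), −0.83, −0.64 and −0.07 in TSA(+) and −2.39 to −1.41 in IVF. The TSA(–) and IVF arrays overlapped and the TSA(+) arrays lay above both, with a difference of 1.24 ± 0.30 from TSA(–) (adjusted p = 0.032).

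The other genes of this group rose by 1.09 to 1.74 on the log2 scale. They were *Crygc*, a crystallin of the lens, *Pcnx2*, a membrane protein of the pecanex family, *Peg12*, an imprinted gene expressed from the paternal allele, and *Pcdhga4*, a γ-protocadherin. *Peg12* had a minimum of −6.74, a median of −5.60 and a maximum of −4.94 in TSA(–) and −4.71, −4.17 and −3.61 in TSA(+), and its level in Cumulus had a mean of −0.88. It did not pass with quantile normalization (adjusted p = 0.090) and passed in 2 of the 14 fits that left out 1 array. Transcripts of the γ-protocadherin cluster share their last exons, and another probe for *Pcdhga4* gave −0.52 and did not pass, as did one for *Crygc* with −0.38, so the differences of these genes hold for 1 probe each.

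*Aldh1a3*, which makes retinoic acid from retinaldehyde, showed the largest decrease of the 15 genes named as lower. Its level had a minimum of −3.09, a median of −2.03 and a maximum of −1.50 in TSA(–), and −9.04, −4.07 and −3.16 in TSA(+). The TSA(+) arrays were uneven, with 4 of 6 well above background, and all lay below the TSA(–) arrays. The difference was −3.22 ± 0.78 (adjusted p = 0.035), or −1.72 with normexp. The IVF arrays lay between −7.00 and −3.60, and the mean in Cumulus was −0.30.

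*Jakmip1*, a protein that binds microtubules and Janus kinases, had a minimum of −4.91, a median of −4.42 and a maximum of −3.49 in TSA(–) and −7.60, −6.39 and −5.84 in TSA(+). The TSA(–) arrays lay with IVF (−5.05 to −3.87), and the TSA(+) arrays, of which 4 of 6 were well above background, lay below both, with a difference of −2.25 ± 0.45 (adjusted p = 0.014). *Myo1e*, a class I myosin of the cell cortex, had −4.92, −4.0 and −3.05 in TSA(–) and −7.25, −5.33 and −5.02 in TSA(+), a difference of −1.71 ± 0.42 (adjusted p = 0.037). *Actn1*, α-actinin, a cross-linker of actin filaments, had −4.90, −4.77 and −2.91 in TSA(–) (n = 7, since 1 array has no value) and −6.94, −6.08 and −4.91 in TSA(+), a difference of −1.68 ± 0.41 (limma, adjusted p = 0.036). Both actin-binding genes had neighbouring groups whose closest arrays nearly touched. The other probes for *Jakmip1* (−0.64) and *Myo1e* (−1.41 and −0.37) did not pass.

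Regulators of transcription and chromatin were among the decreases. *Ehf*, an ETS transcription factor of epithelia, had a minimum of −0.37, a median of 0.32 and a maximum of 0.94 in TSA(–), −1.96, −1.33 and −0.45 in TSA(+) and −0.99 to 0.37 in IVF. The TSA(+) arrays overlapped the lower part of the IVF range only, and the difference was −1.55 ± 0.33 (adjusted p = 0.020). The other probes for *Ehf* gave −0.55 and −0.42 and did not pass. *Rhox9*, an X-linked homeobox gene of the reproductive cluster, had −3.15, −2.76 and −1.55 in TSA(–), −5.60, −4.13 and −3.36 in TSA(+) and a mean of −0.69 in Cumulus. *H1f1*, the linker histone H1.1, had −1.93, −1.50 and 0.77 in TSA(–), −2.96, −2.61 and −1.94 in TSA(+) and −1.65 to −0.96 in IVF, a difference of −1.38 ± 0.31 (adjusted p = 0.023). *Med1*, a subunit of Mediator, fell by 1.46 and the zinc finger gene *Zfp689* by 1.44, each by 1 probe of several: the other probes gave −0.26 and −0.10 for *Med1* and 0.02 for *Zfp689* and did not pass.

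*Dab2*, an adaptor of clathrin-mediated endocytosis, had a minimum of 0.02, a median of 0.33 and a maximum of 0.62 in TSA(–), −1.29, −0.64 and −0.43 in TSA(+) and 0.09 to 0.67 in IVF. The TSA(–) and IVF arrays thus covered the same range and the TSA(+) arrays lay below it, by 1.06 on average from TSA(–) (SE 0.19, adjusted p = 0.0055). *St6gal1*, a sialyltransferase of the Golgi, had 1.80, 2.28 and 3.64 in TSA(–), 1.15, 1.32 and 1.66 in TSA(+) and 1.90 to 2.49 in IVF, a difference of −1.09 ± 0.20 (adjusted p = 0.0066). *Nudt7*, a coenzyme A hydrolase of peroxisomes, had −0.94, −0.49 and −0.13 in TSA(–), −2.09, −1.38 and −1.05 in TSA(+) and −1.03 to −0.63 in IVF. *Dph3* and *Dph6*, both of which act in making the diphthamide residue of elongation factor 2, fell by 0.98 and 1.23, and *Lrrc49*, a component of the tubulin polyglutamylase complex, fell by 1.11. The other probes for *Dab2*, *St6gal1*, *Nudt7*, *Dph3* and *Dph6* did not pass, with differences between −0.59 and 0.20.

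**Figure D3:**
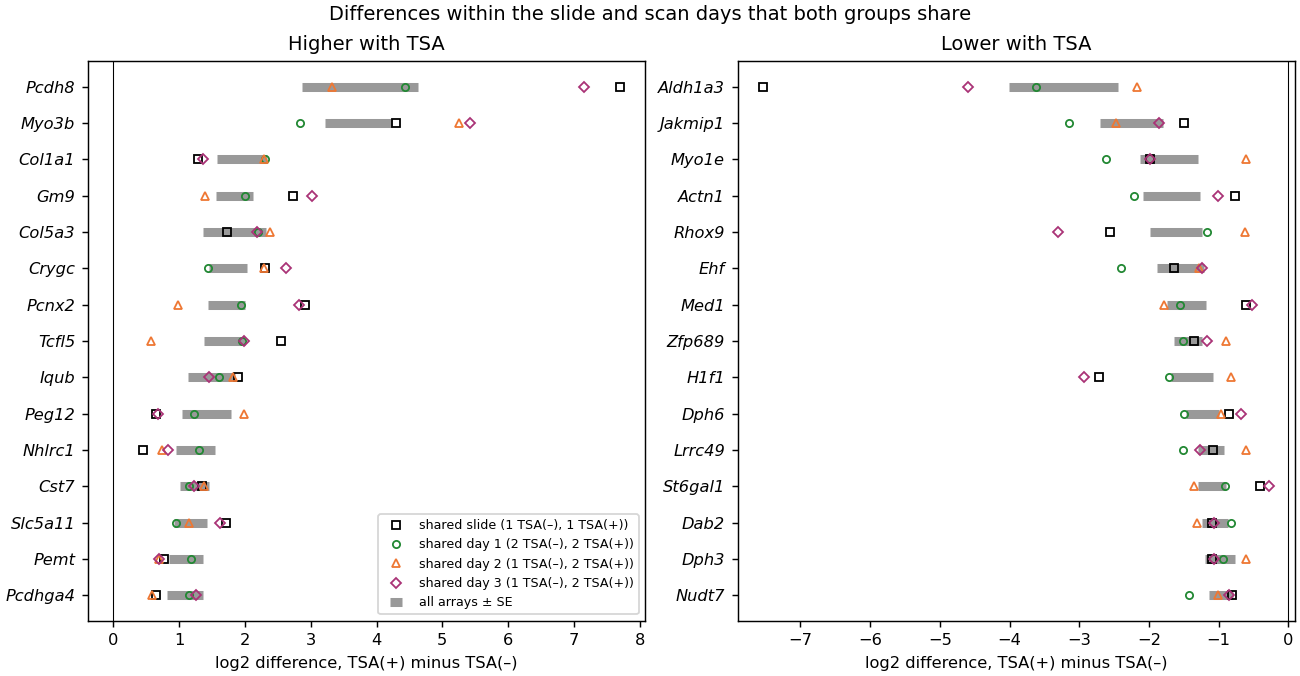
Log2 difference, TSA(+) minus TSA(–), of the 30 named genes over all arrays (grey bar, ± SE) and within the shared slide (squares, 1 array per group) and the 3 shared scan days (circles, triangles and diamonds, 1 or 2 arrays per group). All points lie on the same side of 0 as the grey bar, by the rule that chose genes whose groups do not overlap. *Actn1* has no point for the second shared day, where its TSA(–) array has no value.

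Within the shared slide and each shared day the 30 named genes differed in the same direction as over all arrays, save that *Actn1* had no value on the second day. The same direction follows from the rule that chose genes whose groups do not overlap. The size varied: *Pcdh8* differed by 7.69 on the shared slide and by 4.42, 3.32 and 7.15 on the 3 days, whereas *Cst7* differed by 1.35 on the slide and by 1.14, 1.38 and 1.23 on the days. With the slide as a block none of the 30 passed, with adjusted p from 0.108 to 0.649, and with the scan day as a block 22 did. With normexp all 30 passed, but the difference of 12 was smaller by over 1.5 times, such as *Col1a1* (1.26), *Actn1* (−0.65) and *Jakmip1* (−0.74). With quantile normalization 26 passed, and *Col5a3*, *Peg12*, *Actn1* (adjusted p = 0.088) and *Rhox9* (adjusted p = 0.094) did not. *Actn1* also did not pass with centring on the array median (adjusted p = 0.055). In the 14 fits that left out 1 array each, 16 of the 30 passed every time and 14 did not. Most called genes rest on 1 probe. Of 260 called genes 136 had several tested probes, and in 133 of them at least 1 other probe was not called; 126 of the 180 other probes differed in the called direction, by a median of 0.22.

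The levels in IVF embryos were then set beside those of the clones. The comparisons with IVF share the TSA(–) and TSA(+) arrays with the comparison that chose the genes, so the counts below are a description with no test. Choosing probes by the difference between the clone groups by itself favours TSA(–) and TSA(+) levels on opposite sides of IVF. The shares over all probes, which were not chosen this way, do not allow for that. Of the 163 probes higher in TSA(+), TSA(–) had been lower than IVF at 81, higher at 13 and not called at 69 (limma, adjusted p under 0.05), against 15.9% lower and 13.3% higher of all probes tested. TSA(+) was lower than IVF at 27 of them, higher at 61 and not called at 75, against 18.2% and 12.3% of all. The split over all probes depended on the scaling, since TSA(+) was lower than IVF at 6885 probes and higher at 4660, but at 4640 and 6012 with centring on the array median and at 5540 and 5497 with quantile normalization. The median difference from IVF went from −0.67 in TSA(–) to 0.47 in TSA(+). The TSA(+) mean lay nearer to IVF than the TSA(–) mean at 91 probes (55.8%), against 43.9% of all probes tested.

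Of the 356 probes lower in TSA(+), TSA(–) had been higher than IVF at 142, lower at 30 and not called at 184. TSA(+) was higher than IVF at 9, lower at 157 and not called at 190. The median difference from IVF went from 0.75 to −0.86, and the TSA(+) mean lay nearer to IVF at 159 (44.7%). In the median, each kind lay on one side of IVF in TSA(–) and on the other side in TSA(+), a placing that the choice of probes favours by itself.

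**Figure D4:**
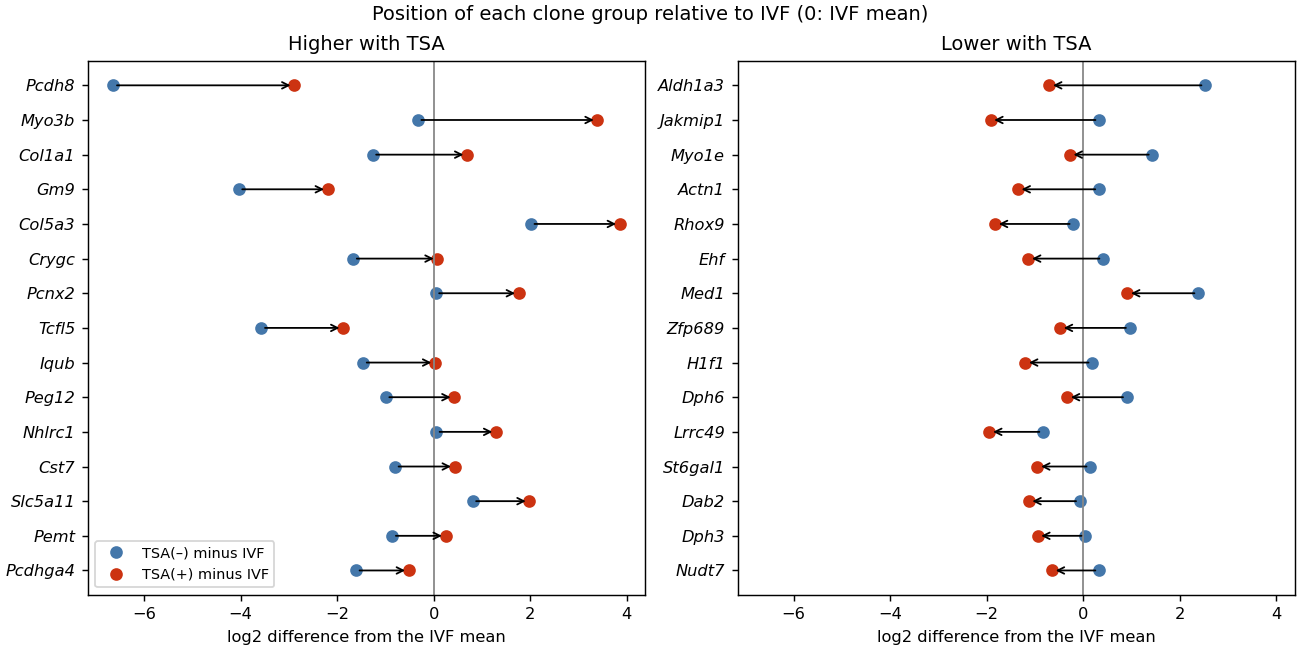
For each of the 30 named genes, the log2 difference from the IVF mean (0, grey line) of the TSA(–) mean (blue) and the TSA(+) mean (red), with an arrow from TSA(–) to TSA(+), for the genes higher (left) and lower (right) with TSA. Arrows of *Crygc* and *Iqub* end near 0, those of *Pcdh8*, *Gm9* and *Tcfl5* stop short of it, and those of *Myo3b*, *Col5a3* and *Jakmip1* lead away from it.

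Among the named genes, 10 of the 15 higher and 5 of the 15 lower in TSA(+) lay nearer to IVF than in TSA(–). *Iqub* went from 1.46 below IVF to 0.03 above it and *Crygc* from 1.67 below to 0.08 above, and neither TSA(+) difference passed the test (adjusted p = 0.97 and 0.88), which does not show that the levels were equal. *Myo1e*, *Aldh1a3* and *Dph6* went from 1.43, 2.52 and 0.90 above IVF to 0.28, 0.70 and 0.33 below it. *Med1* went from 2.38 to 0.91 above IVF. Genes that had been near IVF in TSA(–) and were apart from it in TSA(+) included *Myo3b*, *Pcnx2* and *Nhlrc1* on the higher side (3.39, 1.76 and 1.29 above IVF) and *Jakmip1*, *Rhox9*, *Actn1*, *H1f1*, *Ehf* and *Dab2* on the lower side (1.92, 1.82, 1.35, 1.20, 1.14 and 1.13 below it).

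The transcripts were also compared with those of oocytes. The IVF mean was above the OC mean at 116 of the 163 probes higher in TSA(+) (71.2%) and at 147 of the 356 lower ones (41.3%), against 37.5% of all probes tested. The 75th percentile was lower in OC (median 392) than in IVF (1112), so a probe at background can have a higher level in OC than in IVF. Such probes enter these shares, whereas 155 of the 163 probes were well above background on all TSA(+) arrays. *Gm9*, *Iqub*, *Cst7*, *Col5a3* and *Slc5a11* were of the first kind, with OC means of −3.68, −3.63, −7.00, −7.20 and −6.06 and higher means in all 3 groups of 2-cell embryos. *Cst7*, *Col5a3* and *Slc5a11* were well above background on no OC array, so those OC means are background values. *Dph6*, *St6gal1* and *Nudt7* were highest in OC among these groups, with means of 7.72, 6.62 and 3.21, and lower in TSA(+) than in TSA(–). None of 21 oocyte marker genes passed, with a median difference of −0.21, and their summed linear level was between 899 and 1035 in TSA(–), between 787 and 900 in TSA(+) and between 1050 and 1157 in IVF, while the part of maternal transcripts in the decreases was not tested.

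Lists of genes were described by their counts and medians, with the brightest probe of each gene, against 94 genes higher (0.588%) and 99 lower (0.619%) of 15991 named genes and a median of −0.01. At these shares a short list holds few calls or none, so the lack of a call in such a list is no result about its members. Dimmer probes of some members were also called lower and are not in these counts, among them *Med1*, *Zfp689* and *Myo1e*, described above, and *Bub3*, *Nr1d1* and *Olfr175*. Among the deacetylases that TSA inhibits, *Hdac2* (−0.59 ± 0.20, adjusted p = 0.13) and *Hdac6* (0.54 ± 0.20, adjusted p = 0.16) came nearest to the threshold. None of the 10 tested passed and their median was −0.08. None of 6 sirtuins (median 0.27), 11 histone acetyltransferases (0.16), 26 genes of deacetylase corepressor complexes (0.02) and 14 bromodomain proteins (0.07) passed. Genes known to be raised by deacetylase inhibitors in other cells had a median of 0.20, with 13 of 18 above 0. None of the 18 passed upwards, *H1f0*, the replacement linker histone, being the nearest at 0.68 ± 0.20 (adjusted p = 0.075). *Cdkn1a*, the cell cycle inhibitor p21, differed by 0.38 ± 0.38 (adjusted p = 0.67). The neuronal tubulin *Tubb3*, of the same list, fell by 0.66 (adjusted p = 0.044); its levels, between 2.10 and 3.17 in TSA(–) and between 1.76 and 2.20 in TSA(+), overlapped.

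**Figure D5:**
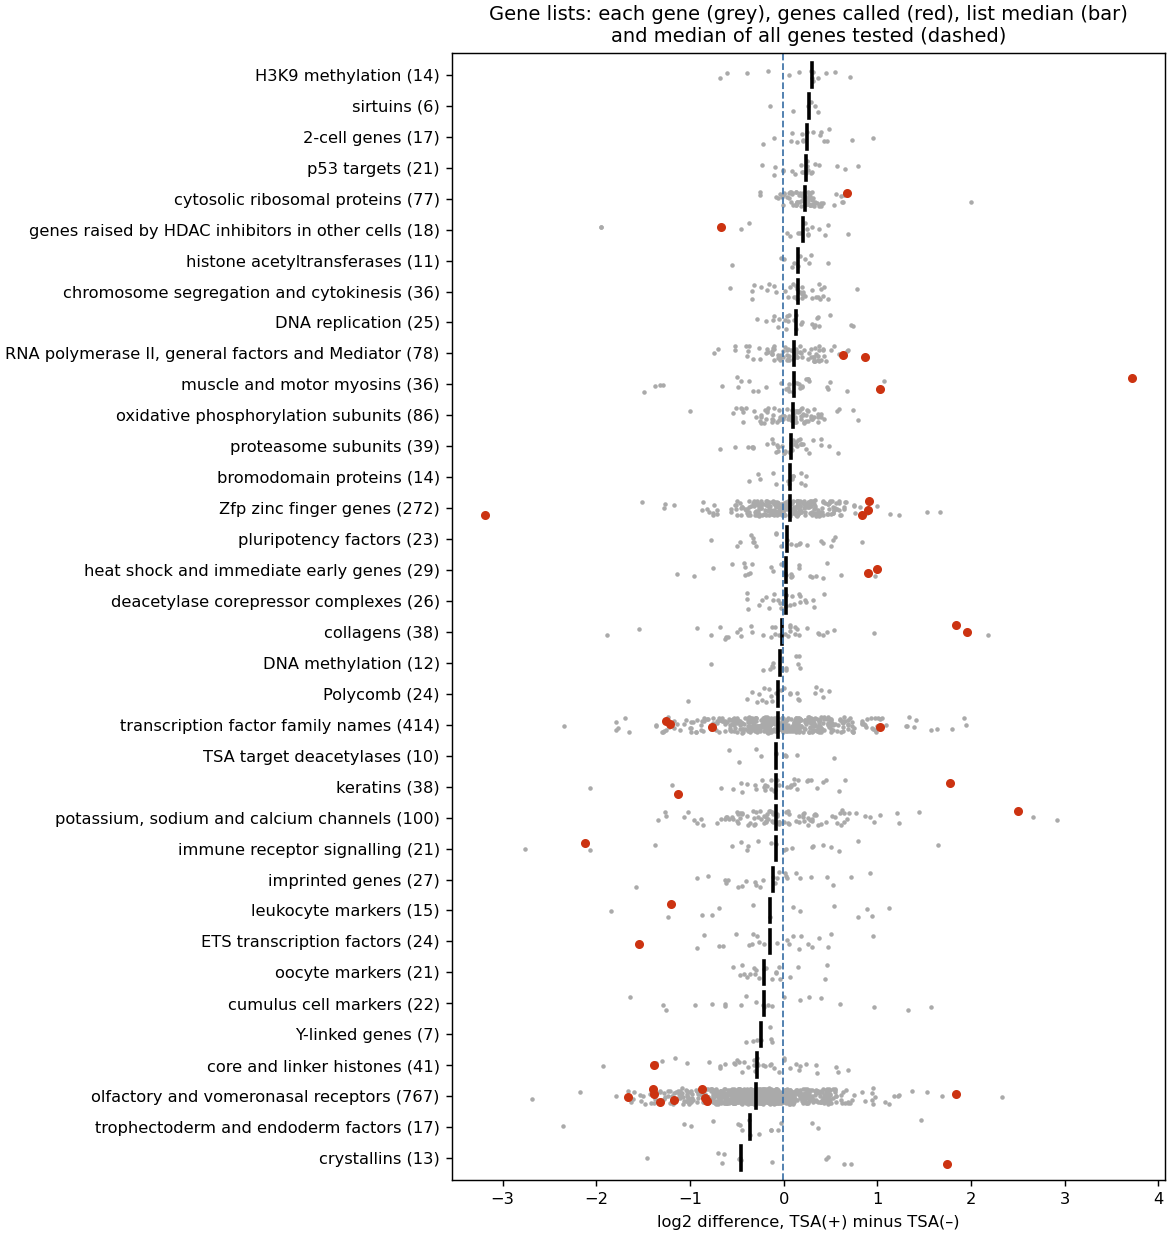
Each row is a gene list (number of genes tested in parentheses), each grey dot a gene at its log2 difference, TSA(+) minus TSA(–), each red dot a gene called at an adjusted p under 0.05, and each black bar the list median; the dashed line is the median of all genes tested, −0.01. Most lists hold no red dot, and the medians run from −0.46 for crystallins to 0.30 for genes of H3K9 methylation.

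None of 17 genes of the 2-cell burst passed, although 15 were above 0, with a median of 0.25. *Spic*, an ETS transcription factor, had a minimum of 1.59, a median of 2.04 and a maximum of 2.47 in TSA(–), 2.78, 2.91 and 3.52 in TSA(+) and a mean of 3.94 in IVF. The clone groups did not overlap, and the difference of 0.95 ± 0.44 did not pass (adjusted p = 0.28). It passed when the clone groups were fitted alone (adjusted p = 0.033) and with normexp (0.034). The SD of *Spic* was 0.93 in OC and 1.98 in Cumulus, against 0.35 in TSA(–) and 0.27 in TSA(+). *Pramel6* differed by 0.73 ± 0.19 (adjusted p = 0.054). *Zscan4c*, whose probe may detect its near-identical copies, differed by −0.22 ± 0.55 (adjusted p = 0.88), with means of 0.35 in TSA(–), 0.13 in TSA(+) and 4.22 in IVF. The ETS gene *Elf3* (0.30 ± 0.23, adjusted p = 0.54) and the translation factor *Eif1a* (0.20 ± 0.32, adjusted p = 0.80) did not pass either. Of the 17 genes, 10 were lower than IVF in TSA(–) and 7 in TSA(+), and their summed linear level was 236 to 442 in TSA(–), 313 to 436 in TSA(+) and 491 to 632 in IVF.

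Of 77 cytosolic ribosomal protein genes, 68 were above 0, with a median of 0.23, and 1 was called. *Rpl7* had a minimum of 3.72, a median of 4.03 and a maximum of 4.36 in TSA(–) and 4.46, 4.69 and 4.89 in TSA(+), with no overlap, and a difference of 0.67 ± 0.13 (adjusted p = 0.013); other probes for it gave 0.30 and 0.38 and did not pass. Of 78 genes of RNA polymerase II, its general factors and Mediator, 2 were called by their brightest probe, both small polymerase subunits and both higher in TSA(+), while a dimmer probe of *Med1* was called lower. *Polr2k* differed by 0.87 ± 0.22 (adjusted p = 0.042), with levels between 0.35 and 1.30 in TSA(–) and between 1.45 and 2.07 in TSA(+). *Polr2i* differed by 0.63 ± 0.15 (adjusted p = 0.032), with levels between 1.53 and 2.16 and between 2.31 and 2.72. Neither overlapped between the groups. Relative to the median of all genes, the ribosomal list lay at 0.24, and at 0.18 with quantile normalization and 0.22 with normexp. None of 86 oxidative phosphorylation genes (median 0.10) or 39 proteasome genes (0.08) passed.

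Heat shock and immediate early genes gave 2 calls of 29, both upwards. *Hspb1*, a small heat shock protein, had a minimum of −0.09, a median of 0.34 and a maximum of 1.05 in TSA(–) (n = 7) and 0.98, 1.40 and 1.74 in TSA(+), overlapping in range (limma, 0.99 ± 0.22, adjusted p = 0.022). *Myc* had −1.63, −1.22 and −0.43 in TSA(–) and −0.52, −0.15 and 0.20 in TSA(+), with a small overlap (0.90 ± 0.20, adjusted p = 0.025), and other probes for it gave 0.52 and 0.82 and did not pass. *Jund*, an AP-1 subunit, was 1.03 ± 0.24 higher (adjusted p = 0.030). It was 1 of 414 genes with names of transcription factor families to be called higher, while *Tfap2b* and *Pbx2* were lower by 1.22 and 0.77. Both overlapped between the clone groups. Other probes did not pass, with 0.52 for *Pbx2* and −1.01 and −0.35 for *Tfap2b*. *Tfap2b* passed in 3 of the 14 fits that left out 1 array, and not with quantile normalization (adjusted p = 0.069). *Pbxip1*, also called lower, matched by name and encodes a protein that binds PBX factors. Of 272 *Zfp* genes, *Zfp30*, *Zfp276* and *Zfp710* rose by 0.91, 0.90 and 0.83, and another probe for *Zfp710* gave 0.31 and did not pass. *Zfp516* fell by 3.19, with 2 of 6 TSA(+) arrays well above background. With normexp its difference was −0.84 and did not pass (adjusted p = 0.057).

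Of 41 core and linker histone genes *H1f1* was the 1 called, and the list median was −0.29, or −0.28 relative to all genes and between −0.28 and −0.22 under the other scalings. None of 14 genes of H3K9 methylation (median 0.30), 12 of DNA methylation (−0.04) and 24 of Polycomb (−0.06) passed, nor did any of the 27 imprinted genes listed (−0.11), which do not include *Peg12*. *Kdm4c*, an H3K9 demethylase, differed by 0.71 ± 0.27 (adjusted p = 0.18) and the methyltransferase *Suv39h2* by −0.61 ± 0.22 (adjusted p = 0.15). On the X chromosome 3 of 562 genes were called higher and 1 lower, and on autosomes 91 and 98 of 15417.

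Genes of the developmental and cell cycle programmes were set against the 1.21% of all named genes called in either direction. At that share lists of this size hold few calls or none. None passed among 23 pluripotency factors (median 0.03), 17 factors of trophectoderm and endoderm (−0.36), 21 p53 targets (0.23), 36 genes of chromosome segregation and cytokinesis (0.16) and 25 of DNA replication (0.13), although a dimmer probe of *Bub3*, a spindle checkpoint protein of the segregation list, was called lower (−0.59, adjusted p = 0.030). Relative to all genes the trophectoderm and endoderm list lay at −0.35, and at −0.22 with quantile normalization and −0.15 with normexp. In this list 11 of the 17 genes were well above background on all clone arrays. Of 24 ETS factors *Ehf* was the 1 called, by 1 of its probes. Tissue-restricted families gave *Krt19* (1.78 ± 0.42, adjusted p = 0.032) and *Krt5* (−1.13 ± 0.26, adjusted p = 0.026) of 38 keratins, *Crygc* of 13 crystallins, *Myo3b* and *Myh14* (1.03 ± 0.23, adjusted p = 0.024) of 36 myosins, *Col1a1* and *Col5a3* of 38 collagens and the inward-rectifier potassium channel *Kcnj2* (2.50 ± 0.65, adjusted p = 0.049, passing in 2 of the 14 fits that left out 1 array) of 100 ion channel genes. Of these, *Krt19*, *Krt5*, *Myh14* and *Kcnj2* overlapped between the groups. Another probe for *Myh14* gave −0.14 and did not pass.

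Of 767 olfactory and vomeronasal receptor genes, 8 were called lower and 1, *Olfr330* (1.84), higher, with a list median of −0.30 and 189 genes above 0. *Olfr792* was well above background on 5 of 8 TSA(–) arrays and on no TSA(+) array, so the size of its difference is uncertain. It was −1.66 ± 0.29 (adjusted p = 0.0051), and −0.29 with normexp, which did not pass (adjusted p = 0.16). Relative to all genes this family lay at −0.29, at −0.06 with quantile normalization and at −0.04 with normexp, and 181 of the 767 genes were well above background on all clone arrays. The crystallin list behaved alike, with −0.45, −0.15 and −0.02.

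Markers of other cells were examined in the same arrays. Cumulus markers had a summed linear level of 10.5 to 14.2 in TSA(–), 12.8 to 15.6 in TSA(+) and 634 to 799 in Cumulus, with 1 of 22 above background on no array in either clone group. Leukocyte markers had 10.8 to 19.1 and 13.2 to 16.2, and the T cell receptor subunit *Cd3e* was lower by 1.21 (adjusted p = 0.037), as was the signalling kinase *Syk* by 2.13 (adjusted p = 0.0090), of 15 and 21 genes. Both overlapped between the clone groups, and *Cd3e* passed in 5 of the 14 fits that left out 1 array. *Syk* was well above background on 4 of 6 TSA(+) arrays, and with normexp its difference was −0.62 (adjusted p = 0.033). Y-linked genes had 0.05 to 0.15 and 0.06 to 0.12 in the clones, with 5 of 7 above background on no array, against 2.03 to 7.99 in IVF. The share of probes well above background was 66.8 to 77.5% in TSA(–) and 68.6 to 75.4% in TSA(+).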

How the data were processed

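The authors deposited, for each array (Agilent whole mouse genome design, 1 colour), the scanner output with a processed intensity made by Feature Extraction 9.5.3.1 (background subtracted, small positive numbers in place of the lowest values, arrays not normalized to each other), after 2 rounds of linear RNA amplification. They also deposited a table of log2 values, found to be the same intensities on the 75th percentile scale with each probe centred on its median over the 39 arrays (column medians −0.30 to 1.08).

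Control spots and spots with an outlier mark were dropped (860 probe values missing on the 14 arrays) and spots of a probe were averaged. The log2 intensity minus the 75th percentile of the array was fitted with limma 3.58.1 (lmFit and eBayes, R 4.3.3, statmod 1.5.0) over the 31 arrays of OC, IVF, TSA(–), TSA(+) and Cumulus, for probes with an intensity of at least 10 on at least 1 IVF, TSA(–) or TSA(+) array, with Benjamini-Hochberg adjustment over all of them. RefSeq accessions (GRCm38.p6) named 23374 of the 41174 probes. A gene in a list was its tested probe with the highest mean. The members and gene lists were chosen with earlier results of these data known.

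Genes named were the 15 largest increases and 15 largest decreases among called, non-overlapping probes, the called members of the lists (up to 6 each), the TSA-sensitive deacetylases, *Spic*, *Elf3* and *Eif1a*; other genes given from the lists (*H1f0*, *Cdkn1a*, *Pramel6*, *Zscan4c*, *Kdm4c*, *Suv39h2*) were chosen after their values were seen. Alternatives were other scalings, normexp (offset 50, on median spot and background intensities since the files hold no means), the authors' log2 values, filters on dim probes, the clone groups alone, slide, scan day or replicate number as a block, other thresholds, Tukey's HSD after the methods' one-way test, and each array left out. The fits with the slide or the scan day as a fixed block left out the Cumulus arrays. The main fit was tested on simulated data. Precision is limited by the number of arrays. Tables and figures were made with pandas 2.3.3 and matplotlib 3.10.9.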

Additional observations from a re-analysis of the deposited data

Results flagged for a closer look

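In 6 of 90 groups of arrays examined (30 named genes in 3 groups), 1 array lay apart from the rest by Dixon's criterion, and chance gives about 1 group in 20. *Pcdh8* was −1.27 on IVF replicate 4, with the nearest IVF array at 0.40. *Tcfl5* was −2.36 on IVF replicate 5, with the nearest at −1.57. *Cst7* was −0.02 on the same array, with the nearest at 0.79, and 0.6 on TSA(+) replicate 6, with the nearest at 1.29. *Nhlrc1* was −3.5 on TSA(–) replicate 3, with the nearest at −2.22. *Myo1e* was −7.25 on TSA(+) replicate 5, with the nearest at −5.73.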

How the results depend on the processing

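All 519 calls of TSA(+) against TSA(–) kept their direction under every setting in which the probe was tested. These settings refit the same arrays or most of them, so a kept direction is no separate support. The number of calls varied. Against 163 higher and 356 lower, centring on the array median gave 528 and 240, quantile normalization 376 and 450, normexp 806 and 872, and the clone groups fitted alone 278 and 328. Similar counts can hold other probes: 261 of the 519 calls were shared with the clone groups fitted alone and 291 with the scan day as a block. An adjusted p under 0.01 left 20 and 37, and requiring a 2-fold difference 88 and 277. The methods' one-way test with Tukey's HSD at the 1% level gave 257 and 517 without adjustment over probes and 14 and 26 with Benjamini-Hochberg. With the slide as a fixed block 1 probe was called higher and 2 lower, and 4076 had an unadjusted p under 0.05. With the slide as a random block, the scan day as a block, the authors' values and 2 filters on dim probes, the counts were between 139 and 238 higher and between 327 and 368 lower. TSA(+) was lower than IVF at 4308 probes at an adjusted p under 0.01.

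Leaving out single arrays gave 58 to 190 higher and 111 to 499 lower. Calls fell by over 1.5 times without TSA(+) replicates 2 (76 and 205), 4 (91 and 221), 5 (58 and 111) and 6 (58 and 167) and TSA(–) replicates 1 (87 and 184) and 5 (76 and 176), as did calls lower without TSA(–) replicate 4 (227).

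The replicate numbers were not shown to pair the groups, since same-numbered arrays correlated between −0.09 and 0.04. With the replicate number as a block over replicates 1 to 6 alone, 0 probes were called higher and 1 lower by limma, with 6599 at an unadjusted p under 0.05; the same 12 arrays with no block, a fit added after the data were seen, gave 388 and 495. Of the values of single genes under the alternatives, 1416 stayed on the same side of the threshold, 4 newly passed and the rest no longer passed. Signal over background limits what dim probes can show.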
